A study of Homo sapiens with 24 samples.

Results

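Binding of S100A8-Flag and S100A9-Flag was examined at 10 immediate early response genes, out of 20090 protein-coding genes on chromosomes 1 to 22 and X. The genes are EGR1, EGR2, EGR3, IER2, IER3, IER5, NR4A1, SRF, ZFP36, and MCL1, and they were chosen by name and not by a measured value. Earlier results of these data were known when the genes were chosen. A peak was assigned to a gene when its summit lay in the gene body or within 50 kb of it, and to a promoter when its summit lay at most 1500 bp upstream or 250 bp downstream of any transcription start site (TSS). Peaks with a q value of at most 1e-07 were counted unless stated otherwise, where the q value is the false discovery rate that the peak caller gave. At the 10 genes, 578 peaks of all libraries passed this limit out of 1351 that were deposited. The peak closest to the limit on the inside had a −log10 q of 7.001 and lay at EGR1, and the closest on the outside had 6.943 and lay at MCL1.

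The cells were MCF-10A–ER-Src, a nontransformed human mammary epithelial line that carries a fusion of the v-Src kinase to the ligand-binding part of the estrogen receptor. The fusion is present in control and treated cells alike, and 24 hours in 1 μM 4-hydroxytamoxifen (TAM) turns the kinase on and starts transformation, whereas controls received ethanol (EtOH) for the same time. Each line stably expressed 1 of the tagged cytokines from an introduced gene, and S100A8 and S100A9 have no DNA-binding domain of their own, so proteins were first cross-linked to each other and afterward to DNA with formaldehyde before chromatin immunoprecipitation (ChIP) with a Flag antibody. S100A8-Flag was profiled in 2 EtOH and 3 TAM libraries and S100A9-Flag in 3 libraries per treatment. By the study's account, nuclear S100A8/A9 is more abundant in TAM, so protein level and treatment cannot be told apart in these lists.

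Across the genome, between 1853 and 4609 peaks passed the limit in the EtOH libraries and between 21518 and 40735 in the TAM libraries. The 10 genes held 9 to 18 of these in EtOH and 68 to 102 in TAM, which is 0.305% to 0.501% of an EtOH library and 0.25% to 0.357% of a TAM library. Read numbers are not given, so depth is unknown, and more binding cannot be told apart from deeper sequencing where more peaks pass the limit. As a check of the labels, a peak over the coding exons of S100A9 was present in all 6 libraries of S100A9-Flag but 1 of the 5 of S100A8-Flag, whereas no library had one over the coding exons of S100A8.

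Immediate early genes respond to growth factors and stress within minutes because the factors that switch them on are already present in the cell. The serum response factor SRF binds CArG boxes next to ETS proteins that the ERK kinases phosphorylate, and CREB and AP-1 sites serve other inputs. Their products either carry the signal on, as the zinc-finger factors EGR1 to EGR3 and the nuclear receptor NR4A1 do, or limit it, as the mRNA-destabilizing protein ZFP36 does. MCL1 is an antiapoptotic BCL2 family protein with a short-lived mRNA and protein.

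The sequences below show the stretches around which the results turn, all from hg19 and written 5′ to 3′ on the strand of the gene, with matches to searched motifs in capitals. The letters searched on both strands were CGGAAG for ETS, CCCCGCCC for KLF/SP1, TGACTCA or TGAGTCA for AP-1, GCGTGGGCG or GCGGGGGCG for EGR, and TGACGTCA for CREB. The CArG box (CC, then 6 bases of A or T, then GG) and the CTCF motif were searched by their consensus, the latter added after the sequences were seen. The KLF/SP1 and EGR letters overlap where G runs are long. The first line is the stretch that holds the EGR1 promoter summit of lowest q value in 6 libraries (chr5:137799814-137799974, plus strand, capitals ETS and then CTCF). The next pair holds its 5 CArG boxes in capitals (chr5:137800740-137800823 and chr5:137801053-137801104, plus strand).
EGR1 summits: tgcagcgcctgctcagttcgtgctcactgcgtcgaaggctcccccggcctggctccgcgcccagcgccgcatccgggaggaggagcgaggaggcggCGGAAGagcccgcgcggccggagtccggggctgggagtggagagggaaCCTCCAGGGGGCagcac
EGR1 distal CArG boxes: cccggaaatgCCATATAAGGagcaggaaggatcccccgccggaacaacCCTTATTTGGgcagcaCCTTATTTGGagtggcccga
EGR1 proximal CArG boxes: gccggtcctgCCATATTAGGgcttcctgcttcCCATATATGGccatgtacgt

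The upstream flanks of SRF and ZFP36 are given because these promoters had a peak in 2 and in 6 of the 6 TAM libraries, respectively, and in no EtOH library. The SRF stretch ends at its gene start (chr6:43138807-43139006, plus strand) and carries a CTCF match, overlapping KLF/SP1 and EGR matches, and a pair of CArG boxes in capitals. The ZFP36 stretch also ends at its gene start (chr19:39897337-39897486, plus strand), with an ETS match followed by a pair of KLF/SP1 matches in capitals. The MCL1 stretch ends at its gene start (chr1:150552215-150552364, minus strand), with ETS and KLF/SP1 matches in capitals. The NR4A1 stretch holds its promoter summit with the lowest q value (chr12:52430789-52430909, plus strand), which belongs to a start site inside the gene, with a KLF/SP1 match on the other strand in capitals.
SRF upstream: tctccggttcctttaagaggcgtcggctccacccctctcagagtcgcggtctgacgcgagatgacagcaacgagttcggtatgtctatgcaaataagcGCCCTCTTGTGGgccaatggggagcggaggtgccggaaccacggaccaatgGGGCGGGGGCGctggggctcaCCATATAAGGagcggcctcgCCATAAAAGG
ZFP36 upstream: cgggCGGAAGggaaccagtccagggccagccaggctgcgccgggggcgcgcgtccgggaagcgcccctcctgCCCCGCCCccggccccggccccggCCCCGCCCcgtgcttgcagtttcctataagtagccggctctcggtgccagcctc
MCL1 upstream: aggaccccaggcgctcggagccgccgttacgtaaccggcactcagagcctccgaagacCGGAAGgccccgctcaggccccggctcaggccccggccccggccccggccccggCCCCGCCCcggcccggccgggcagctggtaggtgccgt
NR4A1 internal promoter: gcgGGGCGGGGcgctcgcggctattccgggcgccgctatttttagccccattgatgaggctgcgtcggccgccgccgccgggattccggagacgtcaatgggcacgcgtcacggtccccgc

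Away from the promoters, the stretch around the summit of the highest-ranked distal site by q value is given for 5 of the genes. These are sites upstream of EGR1 (chr5:137785775-137785875, plus strand, capitals CTCF), upstream of ZFP36 (chr19:39894585-39894685, plus strand, capitals KLF/SP1 and then AP-1), downstream of IER5 (chr1:181081722-181081822, plus strand, capitals AP-1), and upstream of IER3 (chr6:30737494-30737594, minus strand, capitals AP-1). The MCL1 site lies in an intron of a long annotated MCL1 transcript (chr1:150534611-150534711, minus strand) and held none of the motifs.
EGR1 distal site: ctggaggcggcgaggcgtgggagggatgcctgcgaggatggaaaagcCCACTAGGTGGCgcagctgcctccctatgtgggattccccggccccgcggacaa
ZFP36 distal site: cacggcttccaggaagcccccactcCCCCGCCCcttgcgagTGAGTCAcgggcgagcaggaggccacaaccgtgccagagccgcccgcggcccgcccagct
IER5 distal site: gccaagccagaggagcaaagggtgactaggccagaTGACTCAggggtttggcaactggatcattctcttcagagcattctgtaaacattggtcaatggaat
IER3 distal site: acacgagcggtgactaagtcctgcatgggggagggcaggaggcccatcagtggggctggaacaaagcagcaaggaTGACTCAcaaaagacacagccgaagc
MCL1 intron site: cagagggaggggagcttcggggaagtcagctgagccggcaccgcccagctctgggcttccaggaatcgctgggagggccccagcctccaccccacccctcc

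To ask whether S100A8/A9 binding near the immediate early genes differed between transformed and untransformed cells, the number of peaks at each gene was compared over the 11 libraries. The mean number was higher in TAM at all 10 genes, and the increase passed the adjusted threshold at 9 of them, all except EGR2. The increases in mean peak number, averaged over both proteins, were between 2.67 at EGR1 and 13.5 at MCL1 among the 9 genes, with adjusted p values from 0.0242 to 0.0492 by an exact permutation test of the libraries within each protein, two-sided and adjusted over all genes. By the same test 60.9% of all genes were called, so that a count of 9 in 10 has to be read against a change over most of the genome. The median increase was 7.08 peaks over the 10 genes and 2.17 over all genes. The 10 genes already had more peaks in EtOH, with a median of 1.6 per gene against 0.4 over all genes. In TAM these medians were 8.25 and 2.67. Every TAM library exceeded every EtOH library at 7 of the 10 genes and at 36.2% of all genes. The exact test has 200 arrangements, and its smallest p is 0.01. The study calls its ChIP libraries biological replicates, and the p values measure the spread between these libraries.

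The 9 calls depend on how peaks were counted. None of the 10 genes passed the adjusted threshold when peaks were counted within 10 kb of the gene. An unadjusted p under 0.05 was found there at 7 of the 10 genes and at 7905 of all 20090 genes. Without S100A8-Flag EtOH replicate 1 or replicate 2 none passed either, and the smallest p is then 0.025. An unadjusted p under 0.05 was found at 7 or 8 of the 10 genes and at 9120 or 9249 of all genes, respectively.

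The members with the most peaks were IER2, IER3, IER5, ZFP36, and MCL1, which also ranked high among all genes. MCL1 (chr1:150533371-150552214, minus strand) had 5 and 3 peaks in the S100A8-Flag EtOH libraries and 4, 2, and 4 in the S100A9-Flag EtOH libraries. In TAM it had 17, 15, and 13 peaks with S100A8-Flag and 20, 15, and 23 with S100A9-Flag. The TAM libraries were well separated from the EtOH libraries, and the TAM mean (17.2 ± 3.71, SD, n = 6) was at the 99.9th percentile of all genes. The EtOH mean of MCL1 (3.6 ± 1.14, SD, n = 5) was at the 99.5th percentile, so the gene already ranked high in untransformed cells. Peak numbers were not scaled to gene length or gene density. With its long annotated transcript MCL1 spans 18844 bp, and 3 other genes start in its locus.

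ZFP36 encodes tristetraprolin, which binds AU-rich elements and destabilizes cytokine mRNAs. At ZFP36 (chr19:39897487-39900052, plus strand), 1 and 3 peaks were found with S100A8-Flag in EtOH and 1, 1, and 2 with S100A9-Flag in EtOH. In TAM, there were 12, 17, and 9 peaks with S100A8-Flag and 11, 11, and 14 with S100A9-Flag. The increase of 10.7 peaks (adjusted p = 0.0242, exact permutation) was at the 99.4th percentile of all genes, in a gene-dense locus with 5 other gene starts.

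The IER genes encode small proteins of the early response. IER2 (chr19:13261225-13265725, plus strand) had 2 and 3 peaks with S100A8-Flag and 3, 3, and 2 with S100A9-Flag in EtOH, and 14, 12, 11 and 13, 11, 15 in TAM, respectively. IER3 (chr6:30710976-30712325, minus strand), whose product modulates ERK signaling and cell death, had 4, 2 and 5, 1, 2 peaks in EtOH and 12, 15, 11 and 10, 10, 13 in TAM. IER5 (chr1:181057836-181062036, plus strand), whose product promotes heat shock factor activity, had 4, 0 and 1, 1, 2 peaks in EtOH and 13, 10, 9 and 10, 11, 12 in TAM. At each of the 3 genes, the lowest TAM library lay above the highest EtOH library, and the increases were 10.1, 9.0, and 9.17 peaks (adjusted p = 0.0242 for each, exact permutation). No other protein-coding gene starts within the IER5 locus, whereas 4 start in that of IER2 and 3 in that of IER3.

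NR4A1 (chr12:52416616-52453291, plus strand) encodes an orphan nuclear receptor, and SRF (chr6:43139007-43149244, plus strand) the factor that binds CArG boxes. NR4A1 had 1 and 1 peaks with S100A8-Flag and none in the 3 S100A9-Flag libraries in EtOH, against 8, 5, 4 and 4, 3, 10 in TAM. SRF had no peak in any EtOH library, 4, 3, and 4 with S100A8-Flag in TAM, and 4 in each S100A9-Flag TAM library. The increase was 5.17 peaks at NR4A1 and 3.83 at SRF (adjusted p = 0.0242 for both, exact permutation), and the groups did not overlap at either gene. Over all genes, however, the SRF increase was only at the 75.5th percentile.

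The EGR genes encode related zinc-finger transcription factors, and they were at the low end of the list. EGR1 (chr5:137801168-137804992, plus strand) had 1, 3 and 3, 1, 2 peaks in EtOH and 5, 4, 2 and 7, 4, 6 in TAM. EGR3 (chr8:22545172-22550993, minus strand) had 0, 1 and 1, 0, 0 peaks in EtOH and 3, 3, 5 and 1, 5, 3 in TAM. EGR2 (chr10:64571756-64578927, minus strand) had 0, 1 and 0, 0, 0 peaks in EtOH and 1, 2, 0 and 2, 1, 2 in TAM. The TAM and EtOH libraries overlapped at all 3 EGR genes. The increase was called at EGR1 (2.67 peaks, adjusted p = 0.0492) and EGR3 (2.92 peaks, adjusted p = 0.0391) but not at EGR2 (1.08 peaks, p = 0.08, adjusted p = 0.112, exact permutation). EGR1 stood out in its EtOH level, which was at the 96.6th percentile of all genes, whereas its increase was at the 59.3rd percentile.

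**Figure D1:**
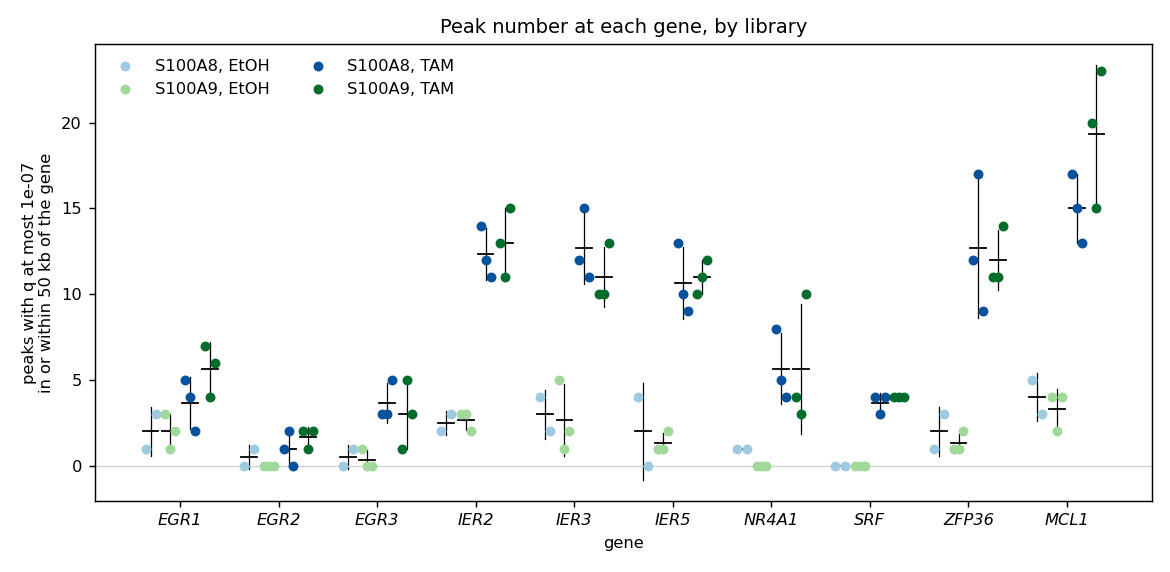
Number of peaks with q at most 1e-07 in the gene body or within 50 kb (y axis) at the 10 genes (x axis), with 1 point per library, colored by protein and treatment. Horizontal bars are group means and vertical bars are SDs (n = 2 or 3). At IER2, IER3, IER5, NR4A1, SRF, ZFP36, and MCL1 all 6 TAM libraries lie above all 5 EtOH libraries.

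Because the TAM lists are much longer, the peak numbers were also compared after each library was limited to its 1853 highest-ranked peaks by q value. Under this count no gene passed the adjusted threshold, and 0.348% of all genes had an unadjusted p under 0.05 with more peaks in TAM. Among the 10 genes these were IER5 and ZFP36. IER5 had 2 such peaks in total over the 5 EtOH libraries and 12 over the 6 TAM libraries (p = 0.01, exact permutation, adjusted p = 1). ZFP36 had 1 in EtOH and 9 in TAM (p = 0.02, exact permutation, adjusted p = 1). IER2 had 9 and 11, MCL1 7 and 14, and IER3 5 and 9, with p values from 0.26 to 0.97 by the exact permutation test. SRF and EGR2 had none of the highest-ranked peaks in any library.

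Promoter peaks were then compared as present or absent in each library, and fold enrichments are those of the promoter peak with the lowest q value in a library. In TAM, a promoter peak in at least 2 libraries of the same protein was found at 8 of the 10 genes, all but EGR2 and EGR3, against 50.8% of all genes. In EtOH the same held for 3 of the 10 genes, IER2, IER3, and IER5, against 9.06% of all genes. A promoter peak in all 6 TAM libraries was found for IER2, IER3, ZFP36, and MCL1, which are 4 of the 10 genes, and for 15.4% of all genes. The median gene of the list had a promoter peak in 5 of 6 TAM libraries and the median over all genes was 2 of 6. No promoter peak passed the limit in any library at EGR3, as was the case for 36.6% of all genes.

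ZFP36 was the single member whose promoter calls separated the treatments completely, with a peak in 6 of 6 TAM and 0 of 5 EtOH libraries (p = 0.01, exact permutation). An unadjusted p under 0.05 with more calls in TAM was found at 12.2% of all promoters, and after adjustment 0% of all promoters passed by this test (ZFP36 adjusted p = 0.319). All 5 EtOH libraries held a weaker deposited peak at ZFP36, with −log10 q values between 2.86 and 5.37, so that its absence in EtOH is an absence of peaks beyond the limit. In TAM, the ZFP36 fold enrichment over input was 7.88, 6.11, and 7.35 with S100A8-Flag and 12.3, 14.8, and 9.74 with S100A9-Flag.

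IER2 and IER3 had promoter peaks in 6 of 6 TAM and 3 of 5 EtOH libraries. The IER2 fold enrichment in TAM was 12.2, 9.82, and 12.7 with S100A8-Flag and 11.7, 11.01, and 8.99 with S100A9-Flag. The EtOH peaks of IER2 were between 7.22 and 9.19, below 5 of the 6 TAM values. These values mix 2 promoter sites, with summits near the gene start in some libraries and 1249 to 1306 bp into the gene in others. At the gene-start site alone, TAM values were 12.2, 6.24, and 6.18 with S100A8-Flag and 11.7, 7.16, and 8.99 with S100A9-Flag. The 2 EtOH peaks at that site, 7.22 and 9.19, lay within this range. The IER3 fold enrichment was 9.86, 6.85, and 8.04 with S100A8-Flag and 5.69, 9.31, and 10.2 with S100A9-Flag in TAM, and the EtOH values of 7.53 to 7.89 lay within that range. The IER2 promoter is divergent with STX10, and both genes were assigned the same promoter peaks.

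MCL1 had promoter peaks in 6 of 6 TAM and 2 of 5 EtOH libraries, and its enrichment spread widely in TAM (SD 4.65, n = 6). With S100A8-Flag in TAM it was 17.8, 3.94, and 10.8, and with S100A9-Flag 7.37, 8.33, and 9.10. The first of these was at the 99.4th percentile of all peaks of its library by fold enrichment and the second at the 0.0477th percentile, although its −log10 q was 9.49. IER5 had promoter peaks in 5 of 6 TAM and 4 of 5 EtOH libraries, a near-even split between treatments. The IER5 values in TAM were 5.28 and 9.35 with S100A8-Flag and 8.41, 13.6, and 13.3 with S100A9-Flag, and those in EtOH were from 5.67 to 10.4.

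EGR1 and NR4A1 had promoter peaks in 5 of 6 TAM libraries, and in 2 and 1 of the 5 EtOH libraries, respectively. The EGR1 fold enrichment was 10.8 and 5.80 with S100A8-Flag and 15.2, 15.4, and 11.7 with S100A9-Flag. In S100A8-Flag TAM replicate 3, the nearest EGR1 peak passing the limit had its summit at −1538 bp, just outside the promoter window. The NR4A1 values were 10.2 and 6.33 with S100A8-Flag and 8.73, 13.1, and 12.2 with S100A9-Flag, and 10.1 in the EtOH library with a peak. All of these NR4A1 peaks were at internal start sites and none at the gene start, with those of 2 libraries at 14218 and 14233 bp into the gene and those of the other 4 between 28067 and 28586 bp. The NR4A1 values thus mix 2 stretches, and the EtOH peak lay in the second. Counting the highest peak of each library there, TAM values were 7.65 and 6.33 with S100A8-Flag and 8.73, 13.1, and 9.53 with S100A9-Flag. The EtOH value of 10.1 lay within this range.

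SRF and EGR2 were at the weak end. The SRF promoter had a peak in 2 of 6 TAM libraries, both S100A9-Flag, with fold enrichments of 9.38 and 8.77. Within the promoter window, all other TAM libraries held a deposited peak below the limit with −log10 q between 3.26 and 4.79. In S100A9-Flag TAM replicate 3, an SRF peak passing the limit (6.22-fold, −log10 q 7.19) had its summit at 270 bp, just outside the window. EGR2 had 1 promoter peak, in S100A8-Flag TAM replicate 2 (6.74-fold), and weaker deposited peaks in 4 further TAM libraries. EGR3 had weaker deposited peaks at its promoter in 4 of 6 TAM and 2 of 5 EtOH libraries, with −log10 q values up to 5.47.

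**Figure D2:**
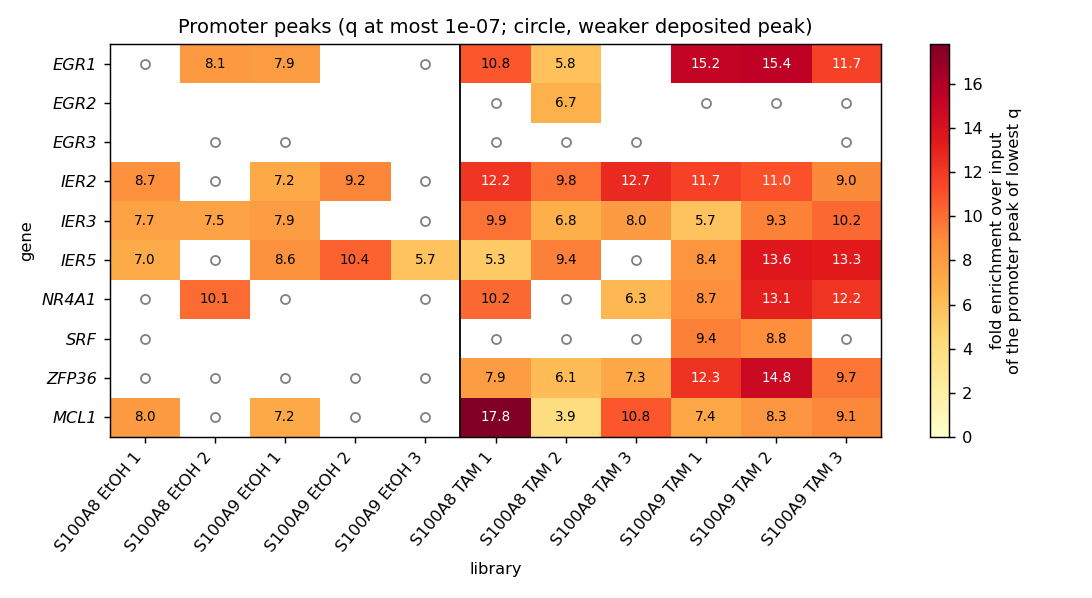
Fold enrichment over input of the promoter peak with the lowest q value, at most 1e-07 (color and number in each cell) for the 10 genes (rows) in the 11 libraries (columns, EtOH left of the line and TAM right of it). Open circles mark promoters with only a weaker deposited peak and blank cells those with none. The ZFP36 row is filled in all 6 TAM libraries and in no EtOH library, and the EGR3 row is not filled at all.

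Within the peaks, the height of the member promoters relative to other promoters was compared between treatments. This used 1939 promoters with a deposited peak in all 11 libraries, each library centered on its median log2 fold enrichment, and limma with the protein as a term. IER2, IER5, ZFP36, and MCL1 were the members that entered this comparison. The relative difference on the log2 scale, TAM minus EtOH, was 0.08 ± 0.23 for IER2, −0.22 ± 0.27 for IER5, 0.35 ± 0.23 for ZFP36, and 0.01 ± 0.28 for MCL1 (SE). The 95% interval was −0.39 to 0.55 for IER2, −0.77 to 0.33 for IER5, −0.12 to 0.82 for ZFP36, and −0.56 to 0.59 for MCL1. None passed the adjusted threshold, and neither did any other promoter by limma (0%), with an unadjusted p under 0.05 for 6.55% of promoters and for no member. Centering removes any change shared by all promoters, so these values bear only on the order among promoters.

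S100A8-Flag and S100A9-Flag were compared in the same way. No gene differed in peak number between the proteins after adjustment (0% of all genes), and an unadjusted p under 0.05 by the exact permutation test was found at 0.647% of genes and at none of the 10 members. The differences, S100A8 minus S100A9 averaged over both treatments, were from −1.83 peaks at MCL1 (p = 0.31, exact permutation) to 1.0 at IER3 (p = 0.43, exact permutation). The increases in TAM were 11 peaks with S100A8-Flag and 16 with S100A9-Flag at MCL1, and 10.7 with each protein at ZFP36. A test of the difference between the increases gave p values of 0.15 to 1 over the 10 genes by the exact permutation test. Within one protein, the smallest p of the exact test is 0.2 for S100A8-Flag and 0.1 for S100A9-Flag, so no gene could be called within one protein.

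The promoter fold enrichment in TAM was tested between the proteins over 3092 promoters with a peak in all 6 TAM libraries. ZFP36 had the lowest p of the 4 members tested, with a log2 difference of −0.64 ± 0.30 (SE, S100A8 minus S100A9, 95% interval −1.26 to −0.01), and the 3 S100A8-Flag values all lay below the 3 S100A9-Flag values. With adjustment over all promoters this difference did not pass the threshold (adjusted p = 0.946, limma). An unadjusted p under 0.05 was found at 4.82% of promoters, and no promoter passed after adjustment (0%). The differences of the other 3 members were 0.27 ± 0.30 for IER2, 0.14 ± 0.32 for IER3, and 0.28 ± 0.39 for MCL1. Their 95% intervals reached from −0.36 to 0.89, from −0.52 to 0.79, and from −0.53 to 1.10, respectively.

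To see where the peaks lay, overlapping peaks of the 11 libraries were merged into 148 sites at the 10 genes, of which 104 were found in at least 2 libraries. By position, 13 sites were at promoters of the members, 26 at promoters of other genes, 27 in the bodies of members, 27 in the bodies of other genes, and 55 between genes. MCL1 had the most sites (30) and EGR2 the fewest (4). Of the 148 sites, 90 were called with both proteins in TAM, 26 with S100A8-Flag alone, and 29 with S100A9-Flag alone, and 3 were called in no TAM library.

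Of the 148 sites, 2 were called in all 11 libraries. One was a merged stretch of 1540 bp in an intron of a long MCL1 transcript. Its strongest summit lay 17553 bp into the annotated gene (chr1:150534661, with the sequence given above). In S100A9-Flag EtOH replicate 1 the only summit in this stretch was outside that sequence, at chr1:150533911. The highest EtOH peaks of the MCL1 site had fold enrichments of 7.75 and 7.38 with S100A8-Flag and 6.46, 7.83, and 8.73 with S100A9-Flag. The other was a merged stretch of 1835 bp, with its strongest summit just downstream of IER3 (chr6:30710814). That summit was at the promoter of the neighboring FLOT1, which encodes the membrane scaffold flotillin. The EtOH summits of this stretch were between chr6:30710092 and chr6:30710630. At this FLOT1 site the EtOH values were 8.48 and 9.01 with S100A8-Flag and 8.66, 10.8, and 7.01 with S100A9-Flag. In TAM the FLOT1 site reached 17.8 in S100A9-Flag replicate 2, at the 98.7th percentile of that library.

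There were 31 sites called in all 6 TAM libraries, and 8 of these were called in no EtOH library. The TAM lists were much longer than the EtOH lists, and the share of such sites over the genome was not counted. The numbers are therefore a description only. Of the 8, 4 were at the ZFP36 locus, 3 at IER5, and 1 at IER2. The ZFP36 sites were its own promoter, a site 2735 bp downstream of its start, and the promoters of the neighbors PLEKHG2 and SUPT5H. The IER5 sites were at the promoter of MR1, which encodes an antigen-presenting molecule, and between genes 46459 and 53040 bp downstream of the IER5 start. The last of these had fold enrichments of 7.61, 18.3, and 7.02 with S100A8-Flag and 6.92, 7.62, and 8.17 with S100A9-Flag. It was thus far above the rest in 1 library, at the 99.6th percentile of S100A8-Flag replicate 2.

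The site with the highest fold enrichment at ZFP36 had its summit at −2852 bp from the gene start, at the site with the KLF/SP1 and AP-1 matches printed above. It was 11.01, 6.24, and 9.33 with S100A8-Flag and 23.7, 12.5, and 11.8 with S100A9-Flag in TAM, counting the highest peak of each library. There were 3 EtOH libraries with this ZFP36 site, at 8.37, 7.78, and 8.09. The IER5 site 23936 bp downstream of its start was at 10.1, 6.07, and 9.36 with S100A8-Flag and 15.1, 9.62, and 12.5 with S100A9-Flag in TAM, and at 5.30 in 1 EtOH library. The EGR1 site at −15343 bp was called in 3 EtOH and 5 TAM libraries. Its S100A9-Flag EtOH peaks were at 12.1 and 11.01, and its S100A8-Flag EtOH peak was at 7.91. Its TAM peaks were between 5.30 and 10.5. That EGR1 site carries the CTCF match in capitals above. Of the distal member sites in at least 2 libraries, 10.96% held a CTCF match within 100 bp of the summit, against 12.7% of distal sites genome-wide.

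**Figure D3:**
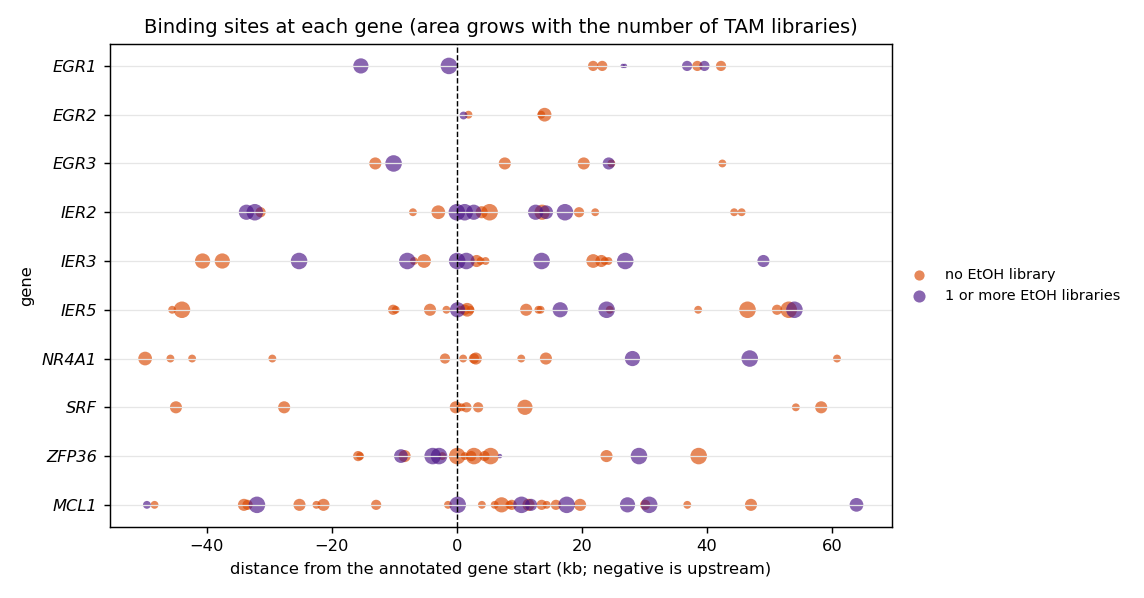
Merged sites at the 10 genes (rows) by distance of the summit from the annotated gene start in kb (x axis, negative is upstream), with point area growing with the number of TAM libraries that called the site. Orange sites were called in no EtOH library and purple sites in at least 1. Sites are dense at MCL1 (30) and IER5 (22) and few at EGR2 (4).

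The summits were then placed against the CArG boxes, the SRF binding sequence that marks many immediate early promoters. Among the promoter windows, CArG boxes were found at EGR1 (5), SRF (2, at −26 and −6 bp), EGR3 (1, at −66 bp), ZFP36 (1, at −1307 bp), and MCL1 (1, at 37 bp). At EGR1, the promoter summit with the lowest q value was between −1344 and −1204 bp in 6 of the 7 libraries with one, in the stretch printed first above, and at −615 bp in the other. These summits were 201 to 930 bp from the nearest CArG box (median 833 bp). Counting every promoter peak of these libraries, EGR1 had 13 summits, 46 to 930 bp from the nearest box (median 790 bp), and the closest was a peak in S100A8-Flag TAM replicate 2 at −32 bp (5.91-fold). At ZFP36 the summits were between −1 and 129 bp of the nearest start site, and between 1305 and 1446 bp from the only CArG box found. The MCL1 summits with the lowest q value were 83 to 275 bp from its CArG box, with 2 further MCL1 promoter summits at 1454 and 3959 bp, and the 2 SRF summits 83 and 144 bp from the nearest of the pair. EGR3, with a box close to its start, had no promoter peak to place.

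**Figure D4:**
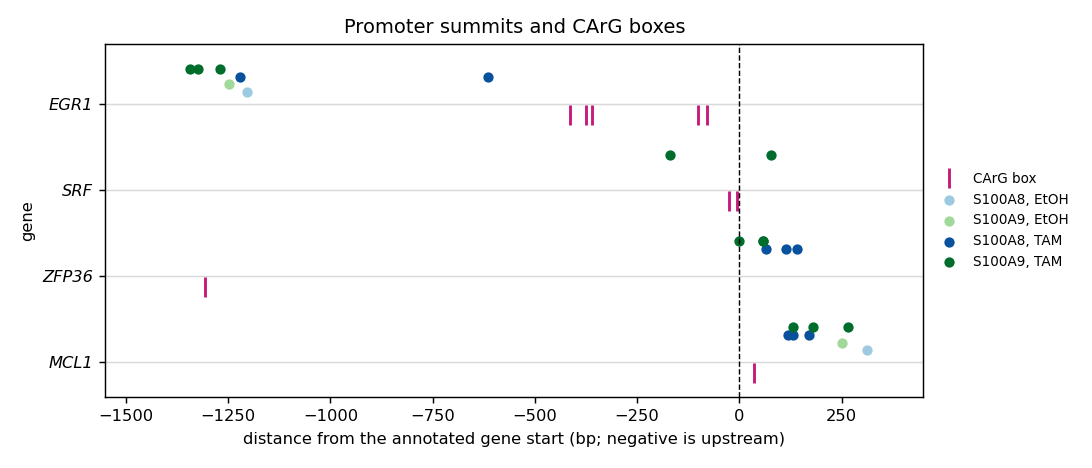
Position of the promoter summit with the lowest q value in each library (points, colored by protein and treatment) and of CArG boxes (vertical ticks) relative to the annotated gene start in bp (x axis) at EGR1, SRF, ZFP36, and MCL1. The EGR1 summits cluster between −1344 and −1204 bp, with 1 at −615 bp, upstream of all 5 of its CArG boxes.

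Over all genes, a CArG box within 100 bp of the gene start was found at 160 genes. Of these 47.5% had a promoter peak in at least 2 TAM libraries, against 55.4% of the 19930 other genes. Within 100 bp of the promoter summit with the lowest q value over all libraries, a CArG box was found in 1 of the 9 members with such a summit (MCL1) and in 0.385% of 12737 promoters. ETS matches were found in 3 of the 9, which are EGR1, EGR2, and MCL1, and in 27.1% of all such windows. KLF/SP1 matched in NR4A1 alone and in 23.6% of windows, EGR in EGR2 alone and in 4.88%, and AP-1 and CREB in no member and in 6.85% and 2.53% of windows. The CTCF motif, added later, matched in 2 of the 9, EGR1 and SRF, and in 6.65% of windows. At distal member sites in at least 2 libraries, AP-1 matched in 17 of 73 (23.3%), against 34.3% of 26287 distal sites genome-wide, and CArG boxes in none of 73 against 0.768%. A match is only a description of the letters in these windows.

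Other genes of the early response were counted beside the members. Of 33 further immediate early genes, 24 were called higher and 0 lower in TAM by peak number, and 29 had a promoter peak in at least 2 TAM libraries of one protein, against 13 in EtOH. Over all genes the shares were 60.9% by peak number, 50.8% for promoters in TAM, and 9.06% in EtOH. The 3 with the most promoter calls were DUSP1, DUSP6, and ATF3. DUSP1, a phosphatase that inactivates MAP kinases, had a promoter peak in all 11 libraries, with fold enrichments of 7.09 to 11.3 in EtOH and 14.4 to 24.6 in TAM. DUSP6, an ERK phosphatase, also had one in all 11, at 7.17 to 9.61 in EtOH and 5.09 to 9.95 in TAM. ATF3, a stress-induced bZIP factor, had one in 4 EtOH and 6 TAM libraries. CCN2, which encodes a secreted matricellular protein, was the only one of the 33 without a promoter peak.

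Of 7 genes for SRF cofactors and EGR corepressors, 5 were called higher in TAM and 0 lower, and 5 had a promoter peak in at least 2 TAM libraries of one protein, against 60.9% and 50.8% of all genes. ELK4, an ETS cofactor of SRF, had promoter peaks in 5 of 5 EtOH and 5 of 6 TAM libraries, at 9.07 to 17.9 and 9.85 to 21.3, respectively. MRTFA, the actin-sensing SRF coactivator, had one in 0 EtOH and 6 TAM libraries, and NAB2, a corepressor of EGR proteins, in 1 and 4. ELK1 had none. Of 10 paralogs of the members, 9 were called higher in TAM and 0 lower, and 9 had a promoter peak in at least 2 TAM libraries of one protein, against 0 in EtOH. The shares of all genes were 60.9%, 50.8%, and 9.06%, respectively. NR4A2, ZFP36L1, and BCL2L1 had promoter peaks in all 6 TAM libraries and in 2, 2, and 1 EtOH libraries.

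For members with a promoter peak in at least 3 libraries, the gene with the closest pattern was sought by the mean absolute difference in log2 (promoter −log10 q + 1) over the 11 libraries. The closest genes were DKK1 for EGR1 (0.23), KLF10 for IER2 (0.19, with STX10 left out because its values are identical), SSR1 for IER3 (0.20), NME6 for IER5 (0.32), MYLIP for NR4A1 (0.12), and UPP1 for MCL1 (0.17). For ZFP36 it was a gene listed as ENSG00000167774 (0.10), which had the same 6 of 6 TAM and 0 of 5 EtOH calls.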

How the data were processed

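ChIP-seq peak lists of 11 libraries, as deposited, were used. The authors used Bowtie2 and hg19, retained reads that mapped to 1 place, and ran MACS2 in narrow mode per library against its own input, without pooling. In the deposited lists, fold enrichment is the ratio of the summit signal to input. The −log10 p and −log10 q of each peak are also the authors' MACS2 values. Tool versions and read numbers are not given in the sources used here, so depth is unknown.

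Members and gene lists were chosen with earlier results of these data known. Genes and start sites were those of GENCODE 44 lifted to GRCh37, and sequences were read from GRCh37. No chromosome of the 23 had a peak beyond its end. Pathway genes were named by the number of libraries with a promoter peak (3 per list), and the most alike gene by the measure in the text.

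Peak numbers and promoter calls were compared by exact permutation of libraries, the treatment within each protein and the protein within each treatment, two-sided by doubling the smaller tail, with Benjamini-Hochberg adjustment over 20090 genes. Fold enrichment was tested with limma 3.58.1 in R 4.3.3 on log2 values centered per library. Both tests were checked on simulated data. Alternatives were every deposited peak, q of at most 1e-10, 1853 top peaks per library, a 10-kb distance, a 1000-bp promoter, the gene 5′ end as the start site, every replicate, quantile normalization, −log10 q, 200-bp summit windows, omission of each library, and the replicate number as a block. Python 3.11.15, numpy 2.4.6, pandas 2.3.3, and matplotlib 3.10.9 were used.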

Additional observations from a re-analysis of the deposited data

How the results depend on the processing

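The number of members called higher in TAM by peak number (9) was 9 with every deposited peak and with q of at most 1e-10. It was 0 with the 1853 top peaks, 0 within 10 kb, and 0 with the replicate block, which has 32 arrangements and a smallest p of 0.0625, and 0 to 8 with 1 library left out. Over all genes, 12240 were called, against 14088 with every deposited peak, 5751 with q of at most 1e-10, 0 with the top peaks, the 10-kb distance, and the block, and 0 to 9544 with 1 library left out. The correlation of deviations between same-numbered EtOH and TAM libraries was −0.046 to 0.132 over 5 pairs and that between S100A8-Flag and S100A9-Flag libraries −0.175 to 0.0126, so the numbers were not taken as pairs. With the block, no promoter call, protein difference, or fold enrichment of a member was called either. Confident member promoters in TAM (8) fell to 3 with the top peaks and were 7 to 8 with 1 library left out. Those in EtOH (3) were 7 with every deposited peak, 1 with q of at most 1e-10, 1 with the top peaks, and 2 to 3 with 1 library left out. Merged sites (148) numbered 102 with q of at most 1e-10 and 184 as 200-bp summit windows. 

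Some differences changed sign, and none of these had passed the adjusted threshold or did so then. For S100A8 minus S100A9 in peak number, every deposited peak gave −0.5 at EGR3 and NR4A1, 0.833 at IER2, −0.917 at IER3, and −1.58 at ZFP36, and q of at most 1e-10 gave −1.42 at IER3, −0.167 at IER5, and −0.417 at NR4A1. The top peaks gave −1.58 at IER3, −1.0 at IER5, and −0.667 at ZFP36, and the 10-kb distance gave 0.167 at EGR1 and −0.417 at IER5. With 1 library left out, these differences were −0.333 to 0.167 at EGR2, −0.0833 to 0.917 at EGR3, −0.917 to 0.0833 at IER2, −0.833 to 1.17 at IER5, −0.167 to 1.58 at NR4A1, and −0.417 to 1.58 at ZFP36. For the share of libraries with a promoter call, TAM minus EtOH, the top peaks gave −0.0833 at IER2 and −0.25 at NR4A1, and leaving out 1 library gave −0.167 to 0.333 at IER5. For log2 fold enrichment, leaving out 1 library gave −0.0933 to 0.31 at IER3 and −0.16 to 0.88 at MCL1 between the proteins, and −0.0229 to 0.17 at IER2 and −0.17 to 0.23 at MCL1 between treatments, where the replicate block gave −0.0166 at MCL1. The causes were not tested.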
